A study of Homo sapiens with 5 samples.

Results

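The cistrome of the glucocorticoid receptor (GR) in dexamethasone-treated 786-O cells consisted of 7879 peaks on chromosomes 1 to 22, out of 8065 peaks in the single GR list. Every row of the list on those chromosomes was taken, and the other 186 peaks lay on chromosome X. 786-O is an established human renal carcinoma line. CUT&Tag was used, in which an antibody tethers a transposase that cuts and tags nearby DNA. GR was profiled in 1 library from cells given 10 µM dexamethasone for 48 h. Lactylated lysine 12 of histone H4 (H4K12la) was profiled in 2 libraries from untreated control cells and in 2 libraries from cells given the same dose for the same time. All 5 libraries came from the unmodified line and carry 1 batch label, and nothing states that replicates were separate cultures. No untreated GR library and no control antibody was used here, so no GR value can be set against a background of the assay.

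The list gives position and length of a peak but no height, and 1 library gives no spread between replicates, so no test of GR was possible and none was run. Its rows were numbered up to 15183, and 7118 of those numbers, over all chromosomes, were absent from the file for a reason that is not stated. The numbers present ranged from 41.4% on chromosome 8 to 78.8% on chromosome 19, so a gene without a listed peak is not shown to lack GR. The H4K12la lists, which serve as background, held 123631 and 109801 peaks on chromosomes 1 to 22 in control replicates 1 and 2 and 79157 and 66376 in dexamethasone replicates 1 and 2. Their median summit heights, a signal deposited by the authors and not scaled to depth here, were 24, 26, 23 and 24. Depth is unknown for all 5 libraries. Of 7 renal markers, 4 had H4K12la peaks within 1 kb of a gene end in both control lists, with mean heights from 58.5 to 129.5, and VIM had a GR peak there. Over all genes, 59.7% had such H4K12la peaks and 33% a GR end peak, so the renal counts are near or below those of all genes. Of 12 blood, endothelial, liver and neuron markers, 3 had such H4K12la peaks, with mean heights from 12.5 to 56.5, and 0 had a GR end peak, against the 33% over all genes (PTPRC, PECAM1, ALB and TTR had no end peak in any of the 5 lists).

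GR, encoded by NR3C1, is a nuclear receptor that rests in the cytoplasm in a complex with HSP90 chaperones. A glucocorticoid such as dexamethasone releases it into the nucleus, where it binds palindromic DNA elements, often at enhancers far from promoters, and also reaches chromatin through other factors such as AP-1 and NF-kB. Well known induced genes are DUSP1, ERRFI1, KLF9, PER1 and FKBP5, which encode a MAP kinase phosphatase, an EGFR inhibitor, a Krüppel-like repressor, a clock protein and a chaperone of the receptor itself. In renal carcinoma cells of this line the VHL pathway is defective and EPAS1, which encodes the hypoxia factor HIF-2alpha, is active.

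Because most GR peaks lay within 1 kb of a gene end, promoter sequences are printed first. They are the 250 bases before the annotated start of genes that the results turn on, from the RefSeq promoter table of GRCh38.p14, read 5′ to 3′ along the gene. Capitals mark letters that match one of the searched motifs on either strand, among them CCAAT (the NF-Y box, ATTGG on the other strand), GGGCGG (the GC box of SP and KLF factors), TGACGTCA (the cyclic AMP response element, CRE), CCGGAAG (the ETS core), CACGTG (an E-box) and TATAAA. DUSP1 (chr5:172771196-172771445, minus strand), ERRFI1 (chr1:8026310-8026559, minus) and EPAS1 (chr2:46297157-46297406, plus) are genes of the hormone and hypoxia pathways. HSP90AA1 (chr14:102139750-102139999, minus) encodes the receptor's chaperone. RPLP1 (chr15:69452568-69452817, plus), WARS1 (chr14:100376328-100376577, minus) and CDK19 (chr6:110815856-110816105, minus) stand for the ribosomal, tRNA synthetase and cell cycle lists. The windows of these 7 genes lay wholly inside a GR peak. HOXC4 (chr12:54016638-54016887, plus) had high H4K12la and no listed GR peak.
DUSP1: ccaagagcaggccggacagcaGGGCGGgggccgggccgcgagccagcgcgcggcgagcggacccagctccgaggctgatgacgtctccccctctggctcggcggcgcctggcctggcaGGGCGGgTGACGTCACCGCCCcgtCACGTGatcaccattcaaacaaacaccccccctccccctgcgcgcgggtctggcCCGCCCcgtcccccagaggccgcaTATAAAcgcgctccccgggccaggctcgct
ERRFI1: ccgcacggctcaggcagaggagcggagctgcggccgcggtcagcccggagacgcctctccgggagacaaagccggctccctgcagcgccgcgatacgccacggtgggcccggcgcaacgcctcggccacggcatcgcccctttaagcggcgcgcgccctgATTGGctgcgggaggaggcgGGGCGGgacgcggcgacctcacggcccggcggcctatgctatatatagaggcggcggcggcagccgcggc
EPAS1: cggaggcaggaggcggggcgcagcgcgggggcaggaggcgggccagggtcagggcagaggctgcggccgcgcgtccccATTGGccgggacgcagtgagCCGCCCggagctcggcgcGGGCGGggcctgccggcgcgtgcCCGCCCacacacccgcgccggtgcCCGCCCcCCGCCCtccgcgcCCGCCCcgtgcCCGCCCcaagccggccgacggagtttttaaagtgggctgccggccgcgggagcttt
HSP90AA1: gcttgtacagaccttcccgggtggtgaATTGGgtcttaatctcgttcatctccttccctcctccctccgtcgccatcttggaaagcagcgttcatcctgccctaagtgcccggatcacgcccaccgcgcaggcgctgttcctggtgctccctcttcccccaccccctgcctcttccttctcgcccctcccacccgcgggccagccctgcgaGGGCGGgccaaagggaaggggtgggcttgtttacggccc
RPLP1: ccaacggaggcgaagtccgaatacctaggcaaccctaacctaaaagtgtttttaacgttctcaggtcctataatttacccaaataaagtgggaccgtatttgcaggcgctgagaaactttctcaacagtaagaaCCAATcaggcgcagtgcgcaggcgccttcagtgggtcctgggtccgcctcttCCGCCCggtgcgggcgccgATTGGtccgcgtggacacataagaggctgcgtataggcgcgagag
WARS1: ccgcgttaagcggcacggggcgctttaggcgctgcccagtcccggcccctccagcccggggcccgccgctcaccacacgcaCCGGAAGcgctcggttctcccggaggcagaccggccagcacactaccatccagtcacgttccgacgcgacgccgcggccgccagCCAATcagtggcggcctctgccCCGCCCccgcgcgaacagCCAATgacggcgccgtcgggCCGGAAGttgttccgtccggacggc
CDK19: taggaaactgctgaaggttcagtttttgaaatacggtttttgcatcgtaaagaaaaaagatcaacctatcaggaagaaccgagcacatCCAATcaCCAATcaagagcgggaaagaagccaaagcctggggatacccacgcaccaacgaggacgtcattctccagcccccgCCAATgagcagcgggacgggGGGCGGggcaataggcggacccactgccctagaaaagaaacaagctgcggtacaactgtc
HOXC4: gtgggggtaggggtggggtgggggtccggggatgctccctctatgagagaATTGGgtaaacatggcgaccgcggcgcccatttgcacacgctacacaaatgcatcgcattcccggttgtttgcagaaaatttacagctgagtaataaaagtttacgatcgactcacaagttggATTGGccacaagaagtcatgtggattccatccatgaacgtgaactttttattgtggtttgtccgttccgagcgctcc

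The 7 windows inside a GR peak were taken only among those that hold a searched motif, so their matches follow in part from that choice. All 8 printed windows held an NF-Y box, a GC box or both. The window of PCDHGA1, which had no listed GR peak and is not printed, held none of the motifs. Of all 15101 promoter windows, which are 300 bases long, 36% held an NF-Y box and 58.9% a GC box. The receptor's palindrome was in none of the 8, as in 0 of 15101. The DUSP1 window held 4 GC boxes, a CRE, an E-box and a TATAAA run, and EPAS1 held 7 GC boxes and 1 NF-Y box. CDK19 had 3 NF-Y boxes, WARS1 had 2 together with 2 ETS cores, and HOXC4 had 2 NF-Y boxes and no GC box. A match is a description of letters and is not a bound site, and a missing match says only that the letters are not in the window.

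GR peaks were short and gathered just upstream of gene starts. Within 1 kb of an end of a protein-coding gene lay 5306 peaks, or 67.3% (95% exact binomial interval 66.3 to 68.4%). Inside genes but away from their ends lay 1861 (23.6%), and outside genes 712 (9.04%). Ends are those of the whole gene span, and whether a peak inside a gene lay at the start of a shorter transcript was not examined. Intervals here and below cover counting error only, and treat as separate the genes or peaks that may share a position. A gene has a start and a far end, and the strand of the promoter table separated them. Among 11788 genes longer than 2 kb whose annotated start is an end of the gene span, GR peaks were within 1 kb of the start in 4362 (37.0%) and of the far end in 257 (2.18%). In the 7684 of these genes with H4K12la end peaks in both control lists, the counts were 4106 (53.4%) and 241 (3.14%).

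Of 7584 GR peaks on chromosomes with annotated starts, 4503 (59.4%) had their midpoint within 1 kb of a start, and 3370 (44.4%) within 250 bp. The midpoints had a median position of 64 bp upstream (−64 bp, quartiles −184 and 83 bp), and 62.7% of them lay upstream. H4K12la summits within 1 kb of any annotated start, with or without a GR peak, were taken as well. They had medians of 21 and 38 bp downstream in control lists and 69.5 and 93 bp in dexamethasone lists. The shares upstream were 47.2%, 44%, 40.8% and 40.1%. GR midpoints were also tighter, with 74.8% of those within 1 kb lying within 250 bp, against 46.3% to 51% of H4K12la summits. A summit and a midpoint are different measures of a peak's place, and the H4K12la summits include those at starts without a GR peak. The effect of either on the offset and the spread was not tested.

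**Figure D1:**
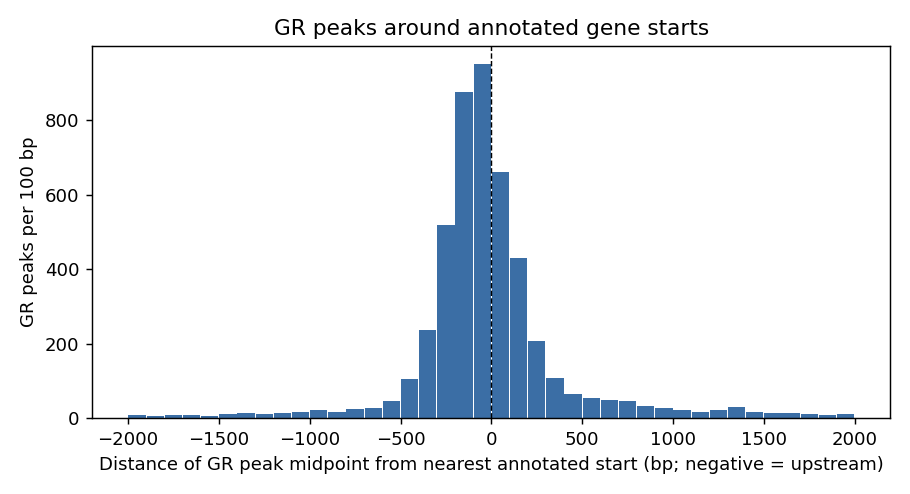
Number of GR peaks per 100 bp (y axis) against the distance of the peak midpoint from the nearest annotated start in bp (x axis, negative values upstream, dashed line at the start). The tallest bar, with 951 peaks, covers the 100 bp before the start, and the next, with 876, lies directly upstream of it.

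Peaks at gene ends were longer than the others. The median length was 469 bp (quartiles 327 and 611 bp) at ends, 372 bp inside genes and 379 bp outside. The whole list had a median of 436 bp, against 637 and 661 bp in the control and 670 and 687 bp in the dexamethasone H4K12la lists. The shortest length, 294 bp, was held by 1868 peaks (23.7%), while 295 bp was held by 13, so a fixed minimum ended the distribution. It was more frequent inside (33.6%) and outside (31.2%) genes than at ends (19.2%). Peaks outside genes lay at a median of 17982.5 bp from the nearest gene end (quartiles 5343 and 63135 bp).

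**Figure D2:**
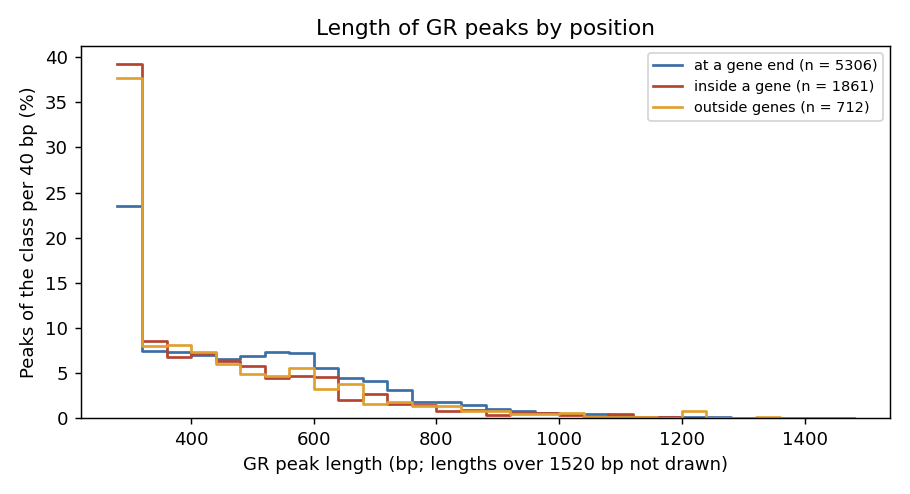
Share of GR peaks per 40 bp of length (y axis, percent of each class) against peak length in bp (x axis) for peaks at a gene end, inside a gene and outside genes. All 3 classes have their highest step at the shortest lengths, where 294 bp peaks make up 19.2%, 33.6% and 31.2%, and the line for gene ends lies above the others between about 480 and 760 bp.

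GR end peaks were found at 6303 of 19126 protein-coding genes (33%). The background for all lists below is the 11412 genes with an H4K12la end peak in both control lists, of which 5911 (51.8%) had a GR end peak. Among the other 7714 genes, 392 (5.08%) had one, and 239 of these had an H4K12la end peak in 1 control list. Within the background the GR share followed H4K12la height. With genes divided into deciles by the mean height of their control end peaks, it was 16.7% in the lowest decile (median height 18.5), 47.2% in the fifth decile (50.5) and 79.6% in the highest (153). The median length of the longest GR end peak per gene went from 358 to 567 bp along the same deciles. Depth and the opening of chromatin to the transposase can move both marks, and their part in this relation was not tested.

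Because of that relation, each gene list is set beside the share that all background genes have at the list's own H4K12la heights. The lists were described with no test. Of 38 lists, 28 lay above that share, 5 had it below their 95% exact interval and 2 had it above. The 5 were cytosolic ribosomal proteins, aminoacyl-tRNA synthetases, cell cycle and replication genes, zinc finger genes and glucocorticoid-induced genes. The 2 were clustered protocadherins and HOX genes.

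**Figure D3:**
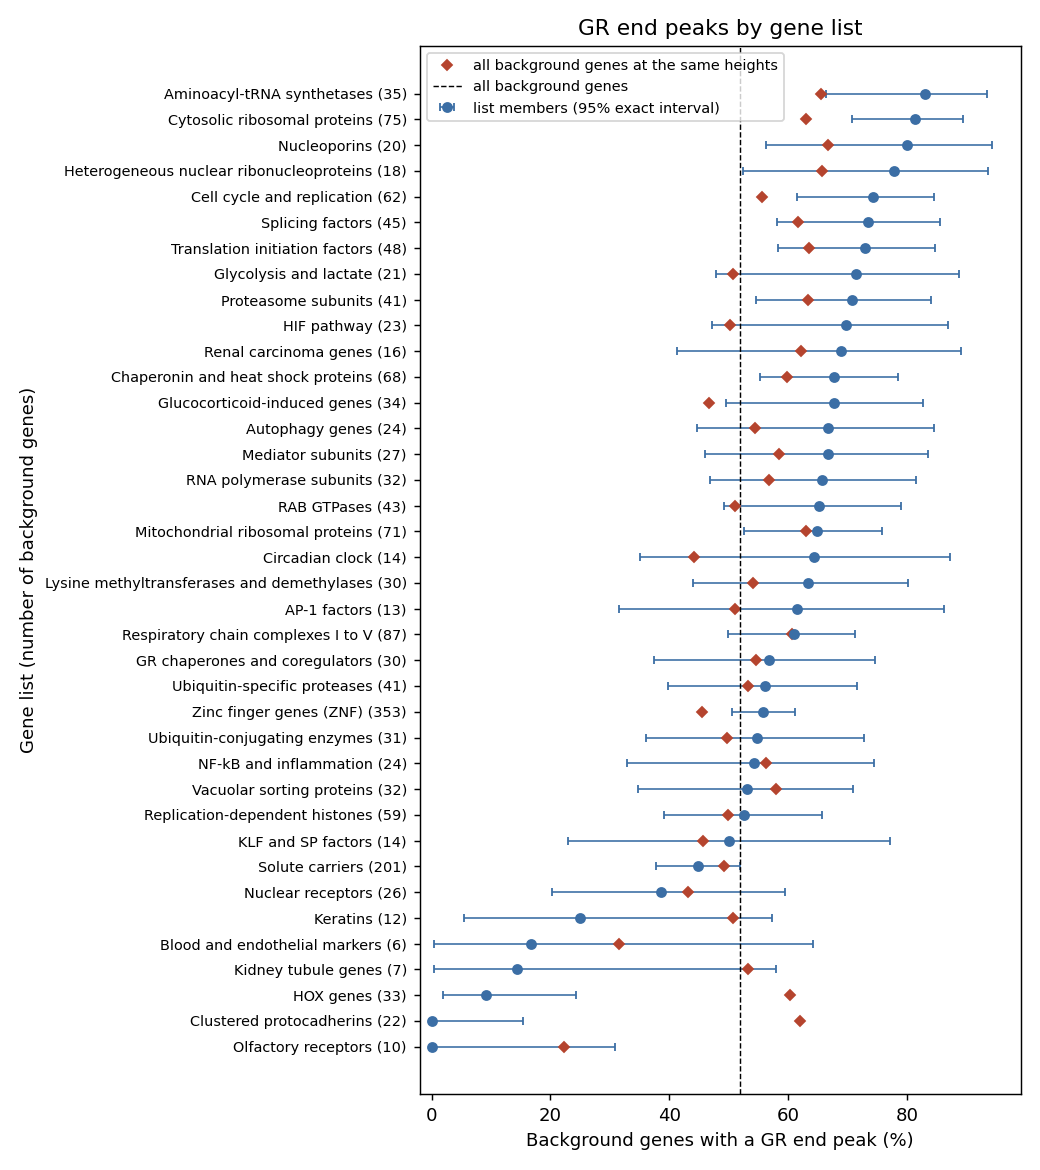
Share of background genes with a GR end peak (x axis, percent) for 38 gene lists (y axis, number of background genes in brackets), with circles and bars for the list and its 95% exact interval, diamonds for all background genes at the same H4K12la heights, and a dashed line at 51.8%. Aminoacyl-tRNA synthetases and ribosomal proteins lie at the top with 82.9% and 81.3%, and HOX genes, protocadherins and olfactory receptors at the bottom with 9.09%, 0% and 0%.

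Among cytosolic ribosomal protein genes, which encode the ribosome's subunits, 61 of 75 background members had a GR end peak (81.3%, interval 70.7 to 89.4%), against 63% at the same heights. Of the 61, 32 share a window with another gene. RPLP1, a stalk protein gene, had an 888 bp GR peak over its start, with H4K12la heights of 33 and 40 in the 2 control lists and no end peak in either dexamethasone list. RPL3 was alike, with an 803 bp GR peak, heights of 40 and 40, and none after dexamethasone. RPS20 carried 843 bp of GR, with heights of 116 and 101 in control, 25 in dexamethasone replicate 1 and none in replicate 2. High H4K12la did not always come with a listed GR peak: RPL21 (155 and 154 in control, 21 and 16 with dexamethasone) and RPL31 (149 and 120, then none) had no GR peak.

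Aminoacyl-tRNA synthetases, which load amino acids onto tRNAs, had GR end peaks at 29 of 35 members (82.9%, 66.4 to 93.4%; 65.5% at the same heights). YARS1, for tyrosine, had the longest of them at 1139 bp, with control heights of 233 and 225 and dexamethasone heights of 40 and 31. WARS1, for tryptophan, had 877 bp over the window printed above, with heights of 150 and 136, then 47 and none. AARS1, for alanine and reported elsewhere as a lactyltransferase, had 2 GR end peaks, the longer of 764 bp. Of the 29 genes, 15 share a window with another gene, among them YARS1, WARS1 and AARS1, so that the peak may be counted for its neighbour too. No GR peak was listed at YARS2, KARS1 or LARS2, whose control heights ran from 65 to 147.

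Other lists of the gene expression machinery also lay high, with intervals that hold the share at the same heights. Nucleoporins, the parts of the nuclear pore, had 16 of 20 (80%, against 66.7% at the same heights), and heterogeneous nuclear ribonucleoproteins 14 of 18 (77.8%, against 65.7%). Splicing factors had 33 of 45 (73.3%, against 61.6%), including SNRPD3, SNRPA and SRSF1 with peaks of 935, 919 and 882 bp. Translation initiation factors had 35 of 48 (72.9%, against 63.5%) and proteasome subunits 29 of 41 (70.7%, against 63.3%). Mitochondrial ribosomal proteins (46 of 71, 64.8%, against 62.9%) and respiratory chain subunits (53 of 87, 60.9%, against 60.6%) lay close to the share of all genes at their heights.

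Cell cycle and replication genes had 46 of 62 (74.2%, 61.5 to 84.5%; 55.6% at the same heights). MCM4, a subunit of the replicative helicase, had a 1052 bp GR peak, with heights of 72 and 120 in control and none with dexamethasone. CDK19 and CDK13, kinase genes counted in the list whether or not they act in the cell cycle, had 897 and 892 bp. CDK19 had heights of 56 and 57, then 18 and 16. ORC6, of the origin recognition complex, had 868 bp and heights of 141 and 192, then 42 and 46, a peak also counted for VPS35. Of the 46 genes, 23 share a window with another gene, among them MCM4, CDK19 and ORC6. The helicase subunit gene MCM5 (82 and 82 in control) and the kinase gene CDK12 (113 and 119) had no listed GR peak.

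Zinc finger genes named ZNF, a large family of DNA-binding proteins of which many are repressors, had 197 of 353 (55.8%, 50.5 to 61.1%), against 45.4% at the same heights. On chromosome 19, 93 of 170 had a GR end peak (54.7%, 46.9 to 62.3%; 36.8% at the same heights). On the other chromosomes the share was 104 of 183 (56.8%, 49.3 to 64.1%), with 53.4% at the same heights inside the interval. Genes of chromosome 19 outside the family also lay above their heights, with 376 of 660 (57%, 53.1 to 60.8%; 48.3%). Chromosome 19 is the one that kept most of its row numbers, so the family, the chromosome and the completeness of the list cannot be told apart. ZNF672 on chromosome 1 had a 1062 bp GR peak (heights 61 and 125, then 31 and 45), and ZNF532 had none with heights of 95 and 161.

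Glucocorticoid-induced genes had 23 of 34 (67.6%, 49.5 to 82.6%), against 46.6% at the same heights. They were chosen from knowledge of the hormone, although with earlier results of these data known. The longest GR end peaks were those of PTGER4, a prostaglandin receptor gene (997 bp, control heights 96 and 87), SESN1, a stress-induced inhibitor of growth signalling (967 bp, 59 and 81), RGS2, a regulator of G protein signalling (772 bp, 19 and 30), and TIPARP, an ADP-ribosyltransferase gene (689 bp, 43 and 44). PTGER4 and RGS2 had no H4K12la end peak in either dexamethasone list, whereas SESN1 had heights of 22 and 20 and TIPARP of 31 and 24. BIRC3, ANGPTL4 and TNFAIP3, also induced genes, had control heights from 39 to 101, no dexamethasone end peak and no GR peak.

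The hormone's best known targets were split. DUSP1 had a 555 bp GR peak (chr5:172771022-172771576) over its start, with H4K12la heights of 84 and 77 in control and none with dexamethasone. ERRFI1 had 435 bp (chr1:8026138-8026572), with heights of 215 and 262, then 36 and 41. KLF9 had 500 bp (chr9:70413987-70414486), with end-peak heights of 54 and 55, then 22 and 20. No dexamethasone H4K12la peak overlapped the GR peak of KLF9, so the heights of 22 and 20 belonged to other peaks. SGK1, a kinase gene of salt transport, had 1 GR peak of 597 bp inside the gene span and none at the ends of the span. Starts of shorter SGK1 transcripts were not examined, so a GR peak at a promoter of SGK1 is not excluded. Its H4K12la end peaks were near level, at 38, 42, 42 and 40. FKBP5, PER1, ZBTB16 and NR3C1 had no listed GR peak in the gene or within 1 kb, and the ends of NR3C1, PER1 and ZBTB16 were free of H4K12la peaks in all 4 lists.

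Receptor partners stood near the background, with 17 of 30 chaperones and coregulators (56.7%, 37.4 to 74.5%; 54.6% at the same heights). HSPA8, the constitutive HSP70, had the longest peak at 912 bp, with heights of 228 and 206, then 39 and 31. HSP90AB1 had 777 bp (44 and 60, then 22 and 16). HSP90AA1 had 543 bp at the end it shares with WDR20 and 538 bp inside the gene, with end-peak heights of 122 and 134, then 43 and 31. EP300, a coactivator acyltransferase gene, had 492 bp (102 and 115, then 21 and none), and the corepressor gene HDAC2 had none with heights of 139, 155, 30 and 31. Nuclear receptor genes had 10 of 26 (38.5%, 20.2 to 59.4%; 43.1% at the same heights), led by RXRB with 866 bp, while PPARG and NR2F2 had none.

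Genes of AP-1, with which GR is known to interact, had 8 of 13 (61.5%, against 51% at the same heights). JUN (696 bp, heights 111 and 114, then 19 and 19), JUND (766 bp) and ATF4 (706 bp) were among them, and MAF had none. NF-kB and inflammatory genes had 13 of 24 (54.2%, against 56.3%). CCL20, a chemokine gene, had a 950 bp GR peak beyond its far end (heights 117 and 107, then 13 and none). The GR peak of IL6 was 553 bp long and lay upstream of the start (139 and 149, then none and 25). CXCL3 had heights of 76 and 100 in control, 27 and 20 with dexamethasone, and no GR peak. Clock genes had 9 of 14 (64.3%, against 44.2%), led by BHLHE40 with 842 bp, and NR1D2 and CSNK1E had no GR end peak.

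Lactate and hypoxia genes lay above the background, with intervals that hold the share at the same heights. Glycolysis and lactate genes had 15 of 21 (71.4%, 47.8 to 88.7%; 50.6%). GAPDH had 988 bp and ALDOA 871 bp of GR, with heights of 71 and 75, then 20 and 33, for GAPDH. LDHA, which makes lactate, had 586 bp at its start and 440 bp inside the gene. HK2 and PFKFB3 had no GR end peak, though PFKFB3 had 2 peaks inside. HIF pathway genes had 16 of 23 (69.6%, 47.1 to 86.8%; 50.1%). NDRG1 had 1027 bp and VEGFA 640 bp. At EPAS1 the 543 bp GR peak (chr2:46296962-46297504) overlapped no H4K12la peak in any of the 4 lists, and the heights of 27 and 38 within its 1 kb windows belonged to other peaks. Of genes altered in renal carcinoma, tumour suppressors for the most part, 11 of 16 had a GR end peak (68.8%; 62.1%), including VHL (397 bp). VHL had end-peak heights of 30 and 94, then none and 30. Only the peak of height 94 in control replicate 2 overlapped its GR peak. FLCN, KEAP1 and NFE2L2, all with control heights from 136 to 184, had no GR end peak. MYC had 1036 bp, with heights of 128 and 108, then 22 and none.

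HOX genes, the homeobox genes of body patterning, had GR end peaks at 3 of 33 background members (9.09%, 1.92 to 24.3%), against 60.2% at the same heights. The 3 genes rest on 2 GR peaks, both of the minimum 294 bp: 1 at HOXA13 and 1 shared by HOXD3 and HOXD4. Their control H4K12la was high at many members, with a median mean height of 68.5. HOXC4, HOXC5 and HOXC6 share 1 peak of heights 197 and 231 and had no GR peak. Windows are shared by 18 of the 33, which rest on 42 control replicate 1 peaks.

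For the clustered protocadherins, neuronal adhesion genes, the count was 0 of 22 (0 to 15.4%; 62% at the same heights). All 22 share a window and together rest on only 4 control peaks, mainly the one at the 3′ end that the gamma cluster has in common (heights 71 and 77, then none), so the count stands for a few positions and not for 22 promoters. Olfactory receptors had 0 of 10 (0 to 30.8%; 22.2%) and keratins 3 of 12 (25%; 50.6%), of which KRT8 and KRT18 share a 579 bp peak. Among kidney tubule genes CDH16, an adhesion gene of the tubule, was the 1 of 7 with a GR end peak (579 bp; 14.3%, 0.361 to 57.9%; 53.2% at the same heights). Of the longer list of blood and endothelial markers, 1 of 6 had one (16.7%, 0.421 to 64.1%; 31.5%), the macrophage gene CD68, whose window is shared (460 bp; heights 51 and 121, then 26 and 24). PAX8, the renal lineage factor, had heights of 140 and 119, then 27 and 18, and a 563 bp GR peak inside the gene but none at its ends.

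Replication-dependent histone genes lay near the background, with 31 of 59 (52.5%, 39.1 to 65.7%; 49.8% at the same heights). The 31 genes rest on 27 GR peaks, since head-to-head pairs such as H2AC15 and H2BC15 share 1 (781 bp; heights 118 and 119, then 22 and 20). H4C8 had 724 bp and H3C6 665 bp. Pairs of genes with facing starts were frequent in general. The start of 1409 background genes lay within 1 kb of a start on the opposite strand. Of these, 1021 had a GR peak within 1 kb of the annotated start (72.5%, 70 to 74.8%). The share of all background genes with a GR peak at either end was 60.5% at the same heights. Of the 7938 others, 3787 had such a start peak (47.7%, 46.6 to 48.8%), beside an either-end share of 50.9%. The counts take the start alone and the shares at the same heights take both ends, so they are unlike measures. A pair offers a longer stretch and more windows for a peak to fall in, and the part of this was not tested.

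The background genes with the highest control H4K12la show both outcomes. EIF3B and SNX8 share a 799 bp GR peak, with heights of 429 and 459, then 87 and 74. Next was LOC107987020 on chromosome 9 (322 bp), with heights of 250 and 542, then 114 and 117. AFG1L (657 bp; 407 and 348, then 54 and 44) and the pair AIMP1 and TBCK (620 bp; 389 and 330, then 56 and 45) followed. Without a GR end peak were CCDC200 (339 and 340, then 171 and 136), the pair CAPG and SH2D6 (332 and 297, then 36 and 32), which hold 1 GR peak each away from their ends, and the pair FAM114A1 and TLR6 (319 and 305, then 55 and 51).

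Counted over the gene with 1 kb on both sides, 11518 of 19126 genes held no listed GR peak. Of the 7608 genes with a peak, 6661 had 1, 833 had 2 and 114 had 3 or more. GPHN, which encodes a scaffold of inhibitory synapses, had the most with 8, but 6 of them lay at ends of other genes inside its span of 1227209 bp (PALS1, ATP6V1D and EIF2S1, PIGH, ARG2, VTI1B and RDH11). With peaks at ends of other genes left out, an alternative added after the values were seen, 553 genes had 2 or more in place of 947. DLGAP1, a postsynaptic scaffold gene, then led with 5, all inside the gene, 329 to 695 bp long, over H4K12la peaks with control heights from 89 to 142. CUEDC1 had 4 inside, 464 to 827 bp long, with control heights from 57 to 89 and dexamethasone heights of at most 25. ERGIC1, SH3BP2, CHD9 and TNS3 also had 4 each away from any end.

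Dense groups of GR peaks were few. The median gap between neighbouring peaks was 101140 bp (quartiles 36093 and 290732 bp), and 6722 peaks (85.3%) had no neighbour within 10 kb. With gaps of at most 10 kb, 75 groups of 3 or more peaks held 235 peaks (2.98%). Of these peaks 138 lay at gene ends (58.7%), a lower share than the 67.3% of all GR peaks. The largest had 5 peaks in 12557 bp on chromosome 6 (chr6:26021177-26033733), at the histone genes H2AC4, H3C1, H3C2, H4C1 and H4C2. Another, with 4 peaks (chr6:32838228-32854177), covered PSMB8, PSMB9, TAP1 and TAP2, which encode immunoproteasome subunits and the peptide transporter of antigen presentation. A further 4 peaks on chromosome 17 lay at SENP3, EIF4A1, CD68, TNFSF13 and TNFSF12-TNFSF13, and 4 on chromosome 1 included 2 at ends of CKS1B, FLAD1 and SHC1. Some groups had no peak at a gene end, such as 3 peaks inside SH3BP2 (chr4:2794549-2801374) and 3 inside DLGAP1 (chr18:3593533-3604754).

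Some classes of small RNA genes held GR peaks as well. Counting only non-coding genes with no coding gene end in their window and H4K12la end peaks in both control lists, 465 of 4708 had a GR end peak (9.88%). The shares by class were 42.9% of snRNA genes (21 of 49), 20.5% of transcribed pseudogenes (60 of 292), 15.7% of tRNA genes (16 of 102), 11.7% of lncRNA genes (295 of 2516), 9.89% of miRNA genes (28 of 283), 5.83% of snoRNA genes (6 of 103) and 2.2% of pseudogenes (28 of 1270). Of 22 rRNA genes 0 had one. All 4 genes classed as vault RNA genes had one. VTRNA1-1 had 641 bp, with heights of 56 and 54, then 12 and 19. VTRNA1-3 had 352 bp with no H4K12la end peak in any list. The Y RNA genes RNY1, RNY4 and RNY5 had peaks of 671, 346 and 365 bp and RNY3 had none. Both signal recognition particle genes RN7SL1 (765 bp; heights 111 and 95, then none) and RN7SL2 (873 bp; 84 and 92, then none) had one, while RN7SL3 had none with control heights of 92 and 95. RN7SK, RPPH1 and RMRP, whose windows hold a coding gene end, had 1013, 771 and 658 bp. These genes have near-identical copies in the genome, so the place of their reads is uncertain. Of the long non-coding genes MALAT1 had 1228 bp (65 and 86, then 14 and 16) and NEAT1 had none (61 and 49, then 39 and 28).

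GR peaks met H4K12la more often in the control lists than in the dexamethasone lists, which are shorter. At gene ends 83% and 89.1% of GR peaks overlapped a control H4K12la peak and 45% and 35.6% a dexamethasone peak. Inside genes the shares were 78.9% and 80.3%, then 30.3% and 24.1%, and outside genes 80.9% and 83.7%, then 34.8% and 28.1%. Where they overlapped, the nearest H4K12la summit lay at a median of 155 and 152 bp from the GR midpoint in control and 186 and 197 bp in dexamethasone lists. It was inside the GR peak in 67.9%, 68.1%, 64.2% and 61.8% of cases.

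Whether background genes with a GR peak were also listed with H4K12la after dexamethasone varied with height. Over all deciles, an end peak was present in dexamethasone replicate 1 at 63.4% of 5911 genes with GR and 55% of 5501 without, and in replicate 2 at 53.7% and 45.9%. Median control heights were 64 and 72 with GR and 41 and 45 without, so these pooled shares compare genes of different height. Within deciles the order was the other way in deciles 1 to 4 of replicate 1 and in deciles 1 to 6 and 8 of replicate 2. In the lowest decile the shares with and without GR were 23% and 41.7% in replicate 1 and 18.3% and 32.6% in replicate 2, and in the fourth decile 46% and 54.2%, and 37.7% and 44%. In the highest decile genes with GR were listed more often, at 88.6% against 79.4% and 82% against 71.7%. The height of the dexamethasone end peaks that were listed hardly differed, with medians of 27 and 27 with GR and 26 and 27 without. These shares rest on 2 dexamethasone libraries and 1 GR library and were not tested.

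**Figure D4:**
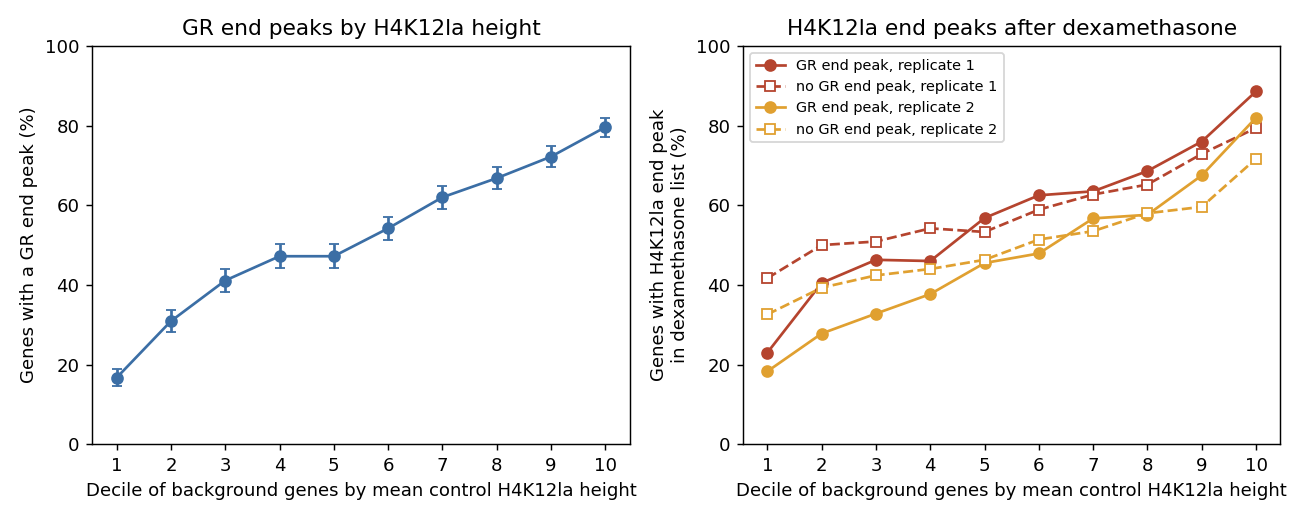
Left, share of background genes with a GR end peak (y axis, percent, bars 95% exact intervals) by decile of mean control H4K12la height (x axis), from 16.7% to 79.6%. Right, share of background genes with an H4K12la end peak in each dexamethasone list (y axis, percent) by the same deciles, for genes with (filled, solid) and without (open, dashed) a GR end peak; the solid lines start below the dashed ones and end above them in both replicates.

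The promoter table held 15101 of the 19126 genes, none on chromosome 8, as windows of 250 bases before and 50 after the start. A GR peak touched 4547 of these windows and covered 1987 wholly. In background genes the median GC content was 65% with GR and 64.3% without, and the median ratio of observed to expected CpG was 0.868 and 0.784. The receptor's palindrome, AGAACA and TGTTCT with 3 bases between them, was found in 0 of the 15101 windows. Only exact letters were searched, so looser forms of the element were not counted. A count of 0 in every class cannot separate windows with and without GR, nor show that receptor elements are absent. Its single arm, AGAACA, was in 7.86% of background windows with GR and in 10.6% of those without, against 11.2% of all windows. AP-1 letters (TGANTCA) were in 3.84% and 5.68% (5.7% of all), TATAAA in 4.5% and 7.09% (9.71%), and the NF-kB consensus in 1.78% and 1.85% (1.62%).

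Motifs of general promoters had the opposite order. NF-Y boxes were in 46.5% of background windows with GR and 28.6% without (36% of all windows), and in 54.5% of windows that a GR peak covered wholly. GC boxes were in 75.5% and 62.2% (58.9% of all), and ETS cores in 25.9% and 15.5% (14.4%). CRE letters (TGACGTCA) were in 4.55% and 2.24% (2.65%), the YY1 consensus in 3.84% and 2.17% (1.96%), and the NRF1 consensus in 3.27% and 1.74% (1.77%). E-boxes (CACGTG) were in 11% and 10.1% (8.77%). All were searched on both strands, and matches of different motifs may overlap. With windows split into 3 classes of equal size by GC content, the NF-Y box was in 56.8% with GR against 36.9% without in the lowest class, 46.2% against 29.5% in the middle and 38.1% against 19.1% in the highest. ETS, CRE, YY1 and NRF1 were also more frequent with GR in each class, and AP-1 less frequent. The classes did not match composition fully. In the lowest class the median GC content was 56.7% with GR and 53.7% without, and the CpG ratio 0.809 and 0.476. In the middle class GC content was 64.3% in both and the ratio 0.862 and 0.767. In the highest class they were 72.3% and 74.7%, and 0.915 and 0.897. The part of these differences in the motif shares was not tested. The gap of the GC box closed with GC content, from 53.6% against 29.3% in the lowest class to 92.9% against 93% in the highest. In the highest class the receptor's single arm (3.77% with GR, 3.57% without) and TATAAA (2.56% and 1.45%) had the reverse of their pooled order, and the E-box was equal at 11.6%. Among windows that themselves held H4K12la in both control lists, several gaps were narrower. ETS cores were in 27.1% with GR and 21.8% without, and CRE letters in 4.43% and 3.08%. The YY1 consensus was in 3.84% and 3.38%, the NRF1 consensus in 3.52% and 2.46%, and E-boxes in 10.8% and 10.9%. The NF-Y box (46.8% and 30.5%) and the GC box (73.5% and 59.6%) kept wide gaps. Promoters with and without GR differ in H4K12la height too, whose part in the motif shares was not tested.

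**Figure D5:**
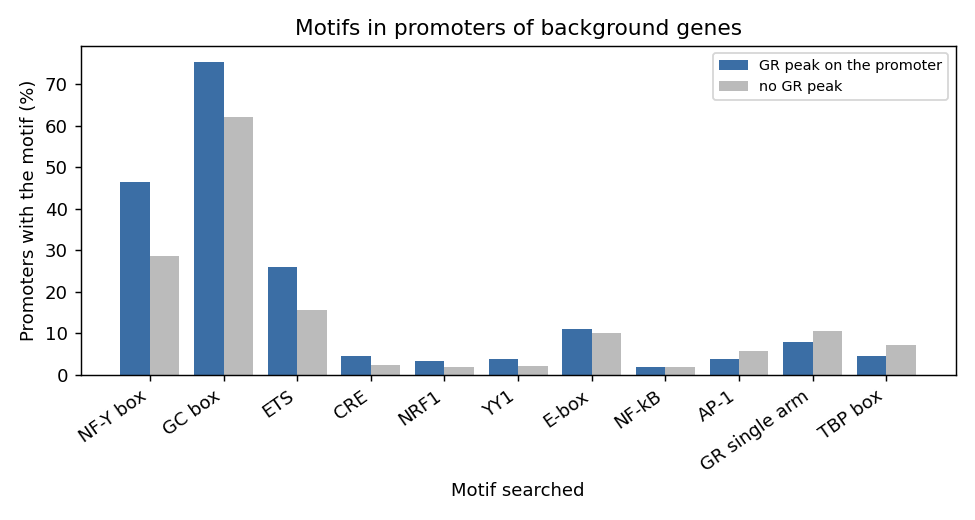
Share of 300-base promoter windows of background genes that hold each searched motif (y axis, percent), with blue bars for windows touched by a GR peak and grey bars for windows without one. The NF-Y box (46.5% against 28.6%), the GC box (75.5% against 62.2%) and the ETS core (25.9% against 15.5%) have the widest gaps, and the TBP box, GR single arm and AP-1 bars are lower with GR. The bars pool all GC contents: in the highest class of GC content the GC box gap closed (92.9% against 93%) and the GR single arm and TBP box turned.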

How the data were processed

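CUT&Tag libraries were grouped from the labels. The submitters' processing notes name fastp 0.19.6, Bowtie2, deepTools and GRCh38. How peaks were called, and against which control, is not given in the sources used here. Each peak list deposited by the authors holds position, length and, for H4K12la, a summit signal (height), which served to rank and filter genes and was not scaled to depth. The deposited lengths and positions of GR peaks were used as given, with no height. Total reads are not given, so depth is unknown.

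Genes and starts came from RefSeq tables of GRCh38.p14. A gene had an end peak when a peak overlapped the 1000 bp on either side of an end of its span by 1 bp. The end-peak height of a gene is that of its highest H4K12la peak at either end, which need not overlap the GR peak. Background genes were those with H4K12la end peaks in both control lists. The share at the same heights weights the GR share of each decile of control height by the list's members. Groups of peaks joined gaps of at most 10000 bp. Intervals are 95% Clopper-Pearson. No p-value was computed. Members and lists were chosen with earlier results of these data known. Genes are named by fixed ranks (longest GR end peaks, highest control H4K12la without GR, most peaks, largest groups), as fixed targets, or as small RNA genes chosen after their values were seen. Simulated peak lists with planted genes served to test the code. Calculations used Python (3.11.15) with numpy (2.4.6), pandas (2.3.3) and scipy (1.17.1), and figures matplotlib (3.10.9).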

Additional observations from a re-analysis of the deposited data

Results flagged for a closer look

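GR peaks also lay outside the chromosomes described above. The GR list held 186 peaks on chromosome X, which no comparison used. No control library for GR was used here, and the cause was not tested.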

How the results depend on the processing

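The share of background genes with a GR end peak, 51.8%, was 46.8% when 1 control list sufficed, 48.8% to 49.5% with 1 control replicate alone, 55.2% and 66.3% with H4K12la heights of at least 20 and 50, 53.2% and 50.7% with windows of 500 bp and 2.5 kb, 50.5% by the peak midpoint, 43% with GR peaks of 300 bp or longer, 46.3% without shared windows and 51.4% at annotated starts alone. With GR peaks of 300 bp or longer, ribosomal proteins gave 69.3%, cell cycle genes 54.8%, zinc finger genes 45.3% and HOX genes 0%, since all their GR peaks were 294 bp. Heights of at least 50 gave 85.7% for glucocorticoid-induced and 68.2% for zinc finger genes, and at least 20 gave 61.6% for the latter. The share of all background genes moved under these settings as well. Shares at the same heights were not recomputed for them, so these list values cannot be set beside the same-height shares of the Results. Gene ends held 63.4% and 72.5% of GR peaks with 500 bp and 2.5 kb windows, 66% by midpoint and 71.5% of those of 300 bp or longer. Gaps of 5, 25 and 50 kb gave 14, 274 and 541 groups, with 0.558%, 12.2% and 28.2% of peaks. Genes with several GR peaks numbered 2209 with 10 kb on both sides and 553 without peaks at ends of other genes. Over all lists and settings, 391 of 416 values stayed within the interval reported above, and 21 of 26 motif shares did. No paired analysis was possible because GR was profiled in 1 library and the results come from no test. The missing row numbers and the unknown depth limit every count.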
